A study of Mus musculus with 15 samples.

Results

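The nuclear genes of oxidative phosphorylation were followed in mouse primary chondrocytes treated with 4 different inhibitors. Members were taken by gene symbol from the annotation of the array: symbols that begin with Nduf, Uqcr, Cox4 to Cox8 or Atp5, and Sdha, Sdhb, Sdhc and Sdhd. They were 90 of the 18193 genes that had a probe set annotated to them alone, measured by 179 of 45037 probe sets, and where a gene had several, the one with the brightest mean signal stands for it. The 15 Affymetrix mouse whole-genome arrays hold 5 groups of n = 3. In each group, chondrocytes from the hind limbs of CD1 mouse embryos (embryonic day 15.5) were grown in monolayer and treated for 24 h, according to the labels, although the series text gives a time of 2 h. One group received only the vehicle DMSO, which served as the control. The others received LY294002, an inhibitor of phosphoinositide 3-kinase (PI3K), U0126 (UO126 in the labels), an inhibitor of the kinase MEK, SB202190 (read from SB90 in the labels), which the series text lists beside U0126 as a MEK/ERK pathway inhibitor and which is widely used against p38 kinases, or trichostatin A (TSA), an inhibitor of histone deacetylases. No other genotype or agent is named for any group. The study's methods give 10 µM for LY294002, and no dose of the other compounds was given in the sources used here. The study describes 3 independent experiments for DMSO and LY294002, and does not describe the cultures of the other groups. Each p-value of the main fit rests on the spread between arrays within the groups, and same-numbered arrays were not paired in it. The cells are monolayers of embryonic cells outside their tissue.

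Oxidative phosphorylation takes place in the inner membrane of the mitochondrion. Complex I (NADH dehydrogenase) and complex II (succinate dehydrogenase, also an enzyme of the tricarboxylic acid cycle) pass electrons to coenzyme Q, complex III (cytochrome bc1) passes them on to cytochrome c, and complex IV (cytochrome c oxidase) gives them to oxygen. The protons pumped on the way drive complex V, the ATP synthase. Most subunits are encoded in the nucleus and a small core in mitochondrial DNA, and several subunits of complex IV exist as isoforms that are best known from particular tissues. Cartilage has no blood vessels, and its chondrocytes are known for a metabolism that leans on glycolysis. The members were 34 subunits of complex I, 8 factors that assemble complex I (Ndufaf genes), 4 subunits of complex II, 8 of complex III, 19 of complex IV and 17 of complex V. The 19 of complex IV include Ndufa4, whose product is now placed there, and its relative Ndufa4l2, which was only counted with it.

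Values are the log2 signals that the authors deposited, 1 per probe set and array, and a difference of 1 is a 2-fold change. A probe set was tested where the mean of either group reached a signal of 50 (5.64 on the log2 scale). In these cultures 89 of the 90 genes passed in at least 1 group and 87 in all groups. Cox7b2, a testis isoform, stayed between 3.74 and 3.99 on the DMSO arrays and was not tested. Cox7c was represented by a dim probe set (5.66 ± 0.12 in DMSO, SD, n = 3). Tests were made with limma, with 1 mean per treatment over the 15 arrays, and called at a Benjamini-Hochberg adjusted p under 0.05 over all probe sets tested.

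All 17 chondrocyte markers, among them the cartilage collagen Col2a1 and the proteoglycan Acan, were above the threshold in every group. All 14 fibroblast and perichondrium markers were so as well in the groups other than TSA, with a summed log2 signal of 15.94 to 16.16 in DMSO against 16.42 to 16.50 for the chondrocyte markers, so passing the threshold does not tell these cell types apart. In TSA the sums were 15.66 to 15.83 and 15.29 to 15.73. In TSA all 17 chondrocyte markers were lower than in DMSO, with a median difference of -1.52. For the marker counts given here, 23.0% of all probe sets tested were called higher and 20.6% lower in TSA. Of 28 skeletal muscle markers tested, 19 were lower and 1 higher in TSA, with a median of -0.61. Of 14 fibroblast and perichondrium markers 3 were higher and 10 lower, and of 15 macrophage and leukocyte markers 2 and 10. Epithelial markers had a summed signal of 12.88 to 13.00 in TSA on the log2 scale and of 11.96 to 12.05 in DMSO, with 4 of 11 higher and 1 lower. The part of these shifts in the results below was not tested, and in bulk cultures fewer cells of a type and less RNA per cell cannot be told apart.

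Of the 4 inhibitors, TSA gave the most calls among the genes of the respiratory chain. Against DMSO, 42 of the 89 genes tested rose and 8 fell, while 39 did not pass the test. Over all probe sets 43.6% were called in this comparison, 23.0% higher and 20.6% lower, against 47.2% and 8.99% of the members. Over all genes, each by its brightest probe set, the shares were 27.0% and 22.7%. The median difference of the members was 0.23, and that of all probe sets tested was -0.06. Of the members, 60 had a difference above 0 and 29 below. On 41 of them every TSA array lay above every DMSO array, and on 13 every one lay below (46.1% and 14.6%, against 24.0% and 25.1% of all probe sets). The rise was mostly small: 22 genes were at least 1.4-fold higher and 2 at least 1.4-fold lower (24.7% and 2.25%, against 15.0% and 9.99% of all probe sets). After quantile normalization of the deposited values, 37 members were higher and 18 lower with a median of 0.13. These were 41.6% and 20.2% of the members, against 23.3% and 22.5% of all probe sets. Under this scaling the share called lower was near that of all probe sets, and the share called higher stayed above it. With each array centred on its median, 44 members were higher and 6 lower, where 24.1% and 16.8% of all probe sets were called.

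**Figure D1:**
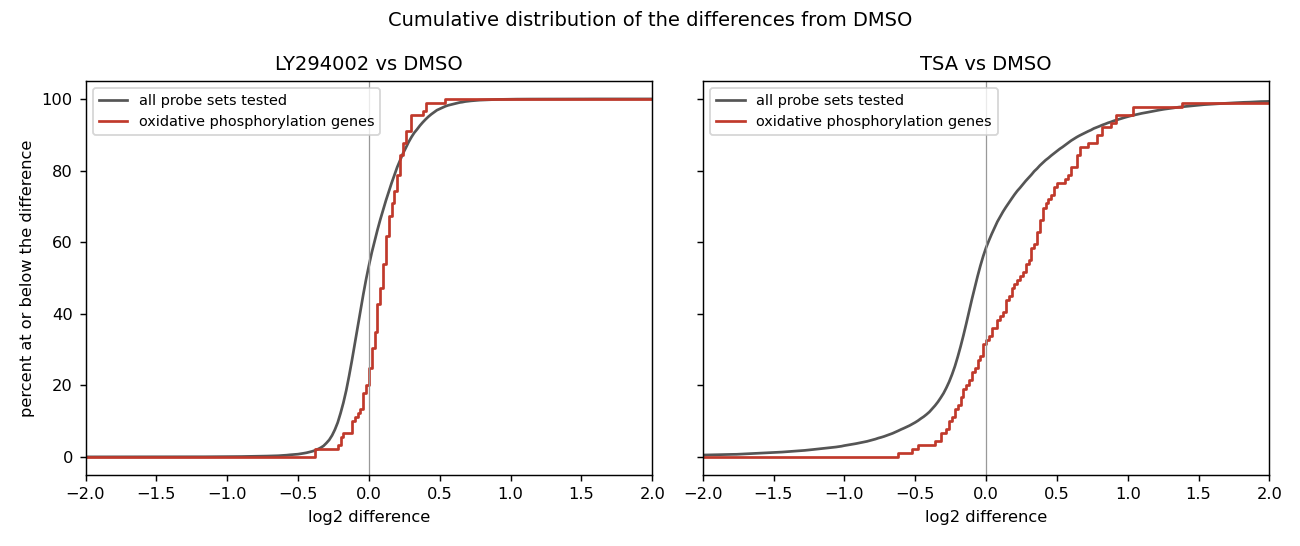
Cumulative share of features (y axis, percent) at or below each log2 difference from DMSO (x axis), for the 89 oxidative phosphorylation genes tested (red) and all probe sets tested (grey), in LY294002 (left) and TSA (right). In TSA the members lie to the right of the other probe sets over most of the range, with a median of 0.23 against -0.06; in LY294002 the medians are 0.08 and -0.02, and the members' median turns to -0.04 after quantile normalization.

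The largest difference of a member was in complex IV, at Cox7a1, the form of subunit VIIa known from heart and skeletal muscle. Its log2 signal was 5.69, 5.81 and 5.47 on the DMSO arrays and 8.30, 7.93 and 8.18 on the TSA arrays. All TSA arrays were far above all control arrays, which lay at the threshold of detection. With each control array taken at the threshold or at its own signal, whichever was higher, TSA was at least 5.35-fold higher (fitted difference 2.48, SE 0.12, adjusted p = 4.45e-11). With LY294002 the signal was 5.82, 5.56 and 5.47, with U0126 5.78, 5.73 and 5.70, and with SB202190 5.83, 5.86 and 5.66. Thus the kinase inhibitors left Cox7a1 within the range of DMSO or just above it, and TSA was at least 5.40-fold, 5.27-fold and 5.09-fold higher than LY294002, U0126 and SB202190, counted in the same way. The liver or ubiquitous form, Cox7a2, was 13.23, 13.05 and 13.01 in DMSO and 13.44, 13.36 and 13.52 in TSA, a rise of 0.34 (SE 0.09, adjusted p = 0.00650). Of the markers of skeletal muscle, a tissue that uses Cox7a1, 19 of 28 fell in TSA, where 20.6% of all probe sets were lower. Their summed log2 signal was 11.93 to 12.03 against 12.48 to 13.20 in DMSO. The part of muscle cells in the Cox7a1 signal was not tested.

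Cox6b2, the testis form of subunit VIb, which lies at the contact of the oxidase dimer, changed second most. It read 9.15, 9.41 and 9.52 in DMSO and 10.81, 10.61 and 10.76 in TSA. The groups did not overlap, and the difference was 1.37 (SE 0.13, 2.58-fold, adjusted p = 2.00e-07). The ubiquitous form Cox6b1 read 12.77, 12.66 and 12.55 in DMSO and 13.06, 12.99 and 13.13 in TSA, a difference of 0.40 (SE 0.09, adjusted p = 0.00162). Promoters of both isoform pairs are printed because these are the pairs in which the tissue form moved most, a choice made after the values were seen. Each line is the 250 bases before the transcription start from RefSeq (GRCm38.p6), on the strand of the gene, with CG dinucleotides in capitals; they lie at chr7:30183921-30184170 (+) for Cox7a1, chr9:79759854-79760103 (-) for Cox7a2, chr7:4753095-4753344 (-) for Cox6b2 and chr7:30626115-30626364 (-) for Cox6b1.
Cox7a1: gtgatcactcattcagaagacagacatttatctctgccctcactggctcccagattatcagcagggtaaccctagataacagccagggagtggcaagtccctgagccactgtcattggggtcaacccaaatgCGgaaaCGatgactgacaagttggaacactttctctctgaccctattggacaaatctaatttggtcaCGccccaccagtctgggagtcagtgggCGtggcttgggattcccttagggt
Cox7a2: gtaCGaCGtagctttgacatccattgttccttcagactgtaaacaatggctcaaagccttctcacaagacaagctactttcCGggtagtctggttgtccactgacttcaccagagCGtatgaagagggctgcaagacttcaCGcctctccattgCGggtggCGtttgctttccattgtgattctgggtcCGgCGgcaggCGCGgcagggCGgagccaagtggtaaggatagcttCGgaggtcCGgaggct
Cox6b2: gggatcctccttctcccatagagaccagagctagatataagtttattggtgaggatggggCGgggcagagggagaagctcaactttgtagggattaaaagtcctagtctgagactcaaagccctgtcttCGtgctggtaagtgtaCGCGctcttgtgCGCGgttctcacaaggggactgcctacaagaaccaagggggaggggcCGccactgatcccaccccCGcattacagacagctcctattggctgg
Cox6b1: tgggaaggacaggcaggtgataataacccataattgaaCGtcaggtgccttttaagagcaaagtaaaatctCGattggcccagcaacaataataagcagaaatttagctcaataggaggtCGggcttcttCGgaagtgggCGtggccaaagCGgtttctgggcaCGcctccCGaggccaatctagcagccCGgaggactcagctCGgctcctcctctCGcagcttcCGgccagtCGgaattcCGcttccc

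Both tissue forms had fewer CG dinucleotides in this window than their ubiquitous partners, 4 in Cox7a1 against 14 in Cox7a2, and 8 in Cox6b2 against 14 in Cox6b1. RefSeq promoters were found for 74 members (79 windows), which held a median of 15 CG dinucleotides, against 6 over 32851 windows of all genes. Members higher in TSA had a median of 16 (40 windows) and those that did not pass 14.5 (30 windows). Those lower in TSA had 20, from only 8 windows. The letters CGCATGCG, bound by NRF1, a regulator of respiratory genes, were present on either strand in 8.86% of member windows and 1.55% of all windows. CCGGAAG, the core bound by ETS factors such as GABP, was present in 17.7% and 6.91%. Of the promoters printed above, Cox6b1 holds CCGGAAG on the opposite strand, 28 to 22 bases before the start. In the members higher in TSA, 7.5% held the NRF1 letters and 20% the ETS letters, and in the other members 10.3% and 15.4%. ACGTG, the core of the hypoxia response element, was found in 21.5% of member windows and 16.6% of all, AAGATGGCG of YY1 in 1.27% and 0.606%, and TCAAGGTCA of estrogen-related receptors in 1.27% and 0.387%. All of these motifs except TCAAGGTCA contain a CG, and CG was more frequent in the member windows. Windows of like CG content were not compared, so the higher shares of matches cannot be told apart from CG content. These are matches of letters, and binding was not measured.

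**Figure D2:**
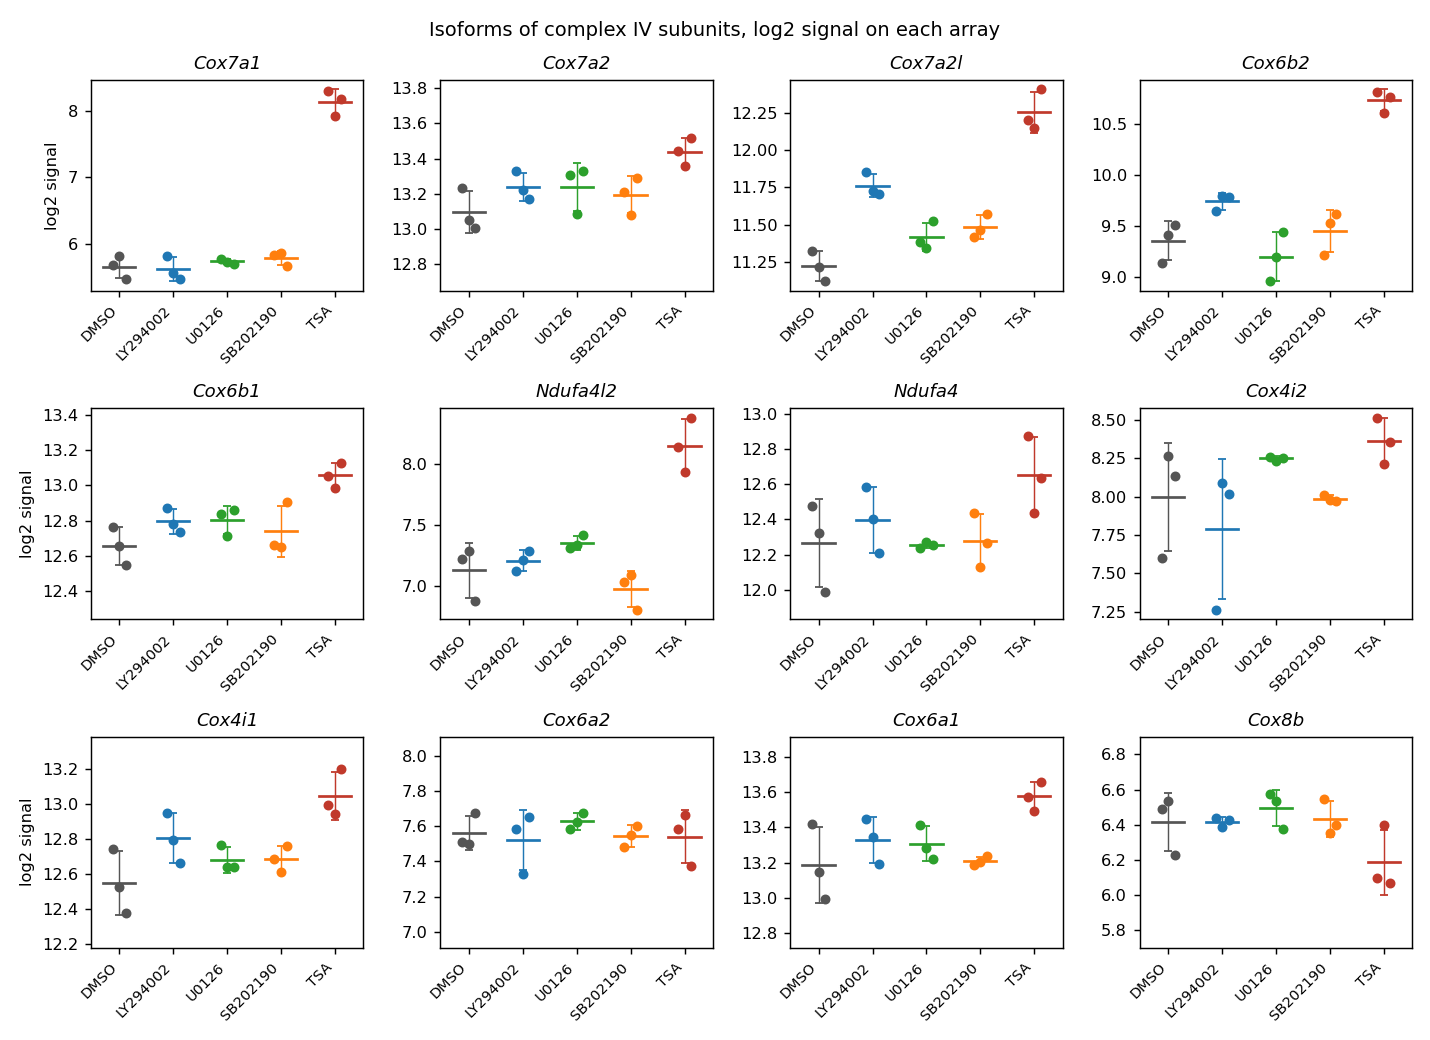
Log2 signal (y axis) of 12 complex IV genes on each of the 15 arrays, by treatment (x axis); points are arrays, horizontal lines group means and bars the SD (n = 3). Each panel has its own scale. The TSA arrays of Cox7a1 (7.93 to 8.30), Cox6b2 (10.61 to 10.81), Cox7a2l and Ndufa4l2 lie above all other arrays, while those of Cox6a2 overlap with DMSO.

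Ndufa4l2, a relative of Ndufa4 that is known as a target of the hypoxia response, read 7.22, 7.29 and 6.88 in DMSO and 8.14, 7.94 and 8.38 in TSA. All TSA arrays were above the control, with a difference of 1.02 (SE 0.12, adjusted p = 2.83e-06). Ndufa4 itself was 12.48, 12.33 and 11.99 in DMSO and 12.88, 12.44 and 12.64 in TSA, groups that overlapped, with a difference of 0.39 (SE 0.13, adjusted p = 0.0278) whose call was lost under 4 of 14 alternatives. Cox7a2l, a relative of Cox7a2 whose product helps to join complexes III and IV into supercomplexes, read 11.33, 11.22 and 11.13 in DMSO and 12.20, 12.15 and 12.41 in TSA. The difference was 1.03 (SE 0.09, adjusted p = 8.42e-08), and its other probe sets gave 0.96 and 1.02.

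The other tissue forms measured did not pass the test in TSA. Cox6a2, of heart and muscle, differed by -0.02 (95% interval -0.23 to 0.19), Cox8b, also of heart and muscle, by -0.23 (interval -0.45 to -0.01), and Cox8c, of testis, by -0.14 (interval -0.29 to 0.02), none past the test over all probe sets (the intervals are not adjusted). Cox4i2, best known from lung, differed by 0.36 (SE 0.18, adjusted p = 0.122) with 7.60, 8.26 and 8.13 in DMSO and 8.51, 8.21 and 8.35 in TSA, which overlap. The ubiquitous forms Cox4i1, Cox6a1 and Cox8a rose by 0.49, 0.39 and 0.28. The call of Cox8a (adjusted p = 0.0439) was lost under 8 of 14 alternatives. Of the nuclear subunits Cox5a and Cox5b, which surround the mitochondrially encoded core, Cox5a rose by 0.60 (adjusted p = 7.23e-05), while Cox5b differed by 0.08 without passing. In all, 12 of the 18 complex IV genes tested rose and none fell (limma, adjusted p), with 1 lower at an unadjusted p under 0.05, and the median was 0.39.

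In complex III, 6 of the 8 genes rose in TSA and none fell (1 lower at an unadjusted p under 0.05), with a median of 0.46. Uqcr11, a small accessory subunit, read 11.33, 11.17 and 11.06 in DMSO and 12.23, 11.97 and 12.11 in TSA, a difference of 0.91 (SE 0.10, adjusted p = 1.34e-06). Uqcr10 rose by 0.66 (its other 2 probe sets differed by -0.11 and 0.15 without passing, and the average of its probe sets by 0.23), Uqcrh, the hinge protein, by 0.63, and Uqcrfs1, the Rieske iron-sulfur protein that carries electrons towards cytochrome c, by 0.63. Every TSA array lay above every DMSO array for these genes. The exceptions were Uqcrc2 (0.14) and Uqcrb (-0.23, adjusted p = 0.0841). The other probe set of Uqcrb was called lower (-0.60), so the absence of a fall depends on the probe set chosen. For Uqcrq, counted as higher, the 3 other probe sets differed by -0.24 to -0.13 without passing. After quantile normalization 4 rose and 1 fell, with a median of 0.36.

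In complex I, 15 of 34 genes were higher and 4 lower, with a median of 0.16. These were 44.1% and 11.8%, against 23.0% and 20.6% of all probe sets. The flavoprotein part, where NADH is oxidised, was higher in all its members: Ndufv3 by 0.91 (SE 0.09, adjusted p = 5.62e-07), Ndufv1 by 0.72 (adjusted p = 1.47e-05) and Ndufv2 by 0.48 (adjusted p = 0.00137). Among membrane accessory subunits, Ndufb9 rose by 0.82 (adjusted p = 8.91e-07) and Ndufb10 by 0.77 (adjusted p = 2.44e-05). Of the 2 other probe sets of Ndufb9, 1 shared the call (0.92) and 1 differed by -0.22 without passing. In contrast, Ndufs8, an iron-sulfur subunit next to the site of coenzyme Q, read 11.75, 11.50 and 11.43 in DMSO and 10.94, 10.84 and 11.02 in TSA. It fell by 0.63 (SE 0.11, adjusted p = 0.000140) with no overlap. Ndufs3, a core subunit of the same arm, fell by 0.48 (adjusted p = 0.000803), Ndufb1 by 0.52 (adjusted p = 0.000294) and Ndufb8 by 0.28 (adjusted p = 0.0479). Thus of the 6 core subunits measured 2 rose, 2 fell and 2, Ndufs1 and Ndufs7, did not pass. With quantile normalization 13 genes of complex I were higher and 9 lower, where 23.3% of all probe sets were called higher and 22.5% lower. The median was then 0.05, and that of the core subunits turned from 0.07 to -0.05.

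Of the 8 assembly factors of complex I, 2 were higher and 3 lower in TSA (25% and 37.5%, against 23.0% and 20.6% of all probe sets). Ndufaf7 rose by 0.81 (SE 0.12, adjusted p = 2.19e-05) and Ndufaf2 by 0.78 (SE 0.12, adjusted p = 5.35e-05), whereas Ndufaf1 fell by 0.36, Ndufaf4 by 0.34 and Ndufaf8 by 0.26. The median over the 8 factors was -0.08. The call of Ndufaf8 was lost under 7 of 14 alternatives, and that of Ndufaf4 with all its probe sets averaged. Complex II had 2 of 4 genes higher, Sdhc, a membrane anchor, by 0.47 (adjusted p = 0.000309) and Sdha, the flavoprotein that oxidises succinate, by 0.31 (adjusted p = 0.00531), with a median of 0.17. Sdha lost its call when its probe sets were averaged, and Sdhb and Sdhd did not pass.

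In complex V, 5 of 17 genes rose and 1 fell (29.4% and 5.88%, against 23.0% and 20.6% of all probe sets), with a median of 0.13. Atp5d, the delta subunit of the central stalk, read 11.96, 11.95 and 11.81 in DMSO and 12.72, 12.67 and 12.91 in TSA, a rise of 0.86 (SE 0.09, adjusted p = 9.45e-07). Atp5e, the epsilon subunit that sits beside it in the stalk, went the other way: it read 11.24, 11.04 and 11.03 in DMSO and 10.77, 10.69 and 10.87 in TSA, and fell by 0.33 (SE 0.09, adjusted p = 0.00613). Neither pair of groups overlapped. Atp5h and Atp5l, of the stator and the membrane part, rose by 0.58 and 0.55. The catalytic beta subunit Atp5b differed by 0.13, and the ring subunits Atp5g1, Atp5g2 and Atp5g3 by -0.20, -0.27 and 0.21, none past the test. Atpif1, the inhibitor of the synthase, whose symbol lies outside the rule, was 11.36 ± 0.25 in DMSO and 11.19 ± 0.15 in TSA (SD, n = 3; adjusted p = 0.357). After quantile normalization 5 genes of complex V were higher and 4 lower.

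**Figure D3:**
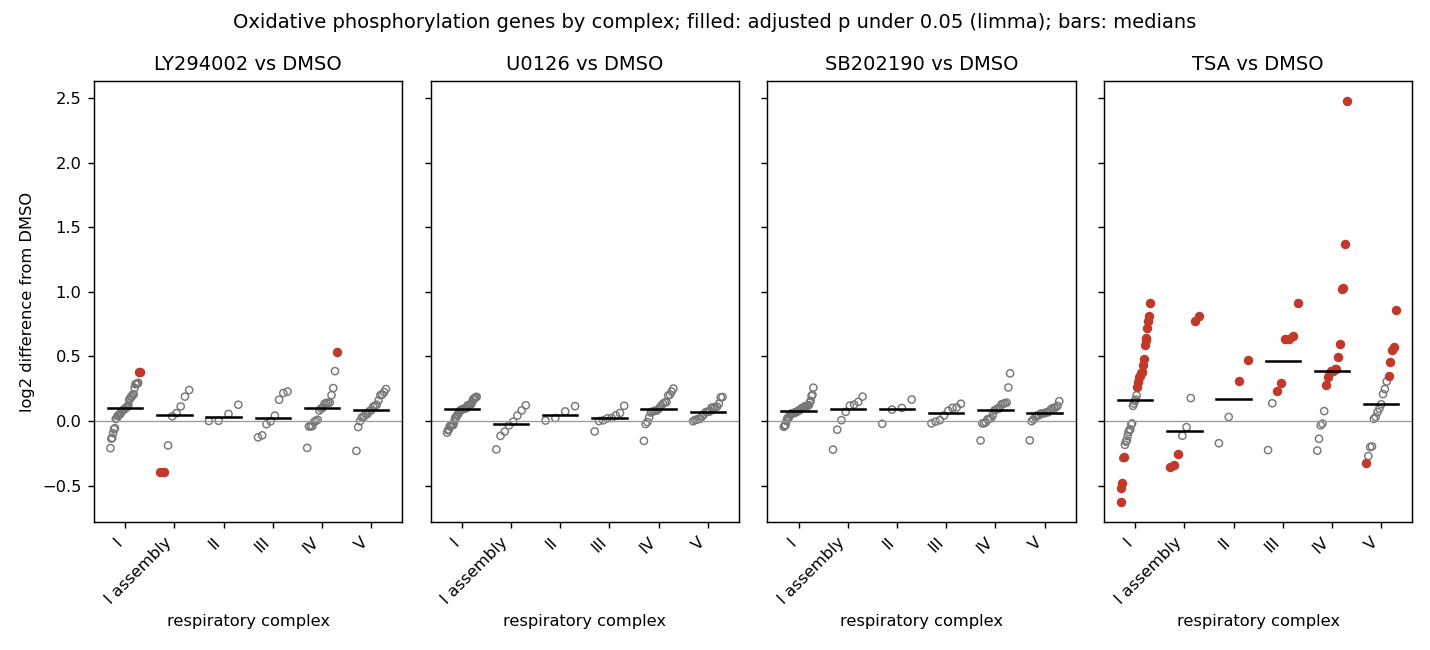
Log2 difference from DMSO (y axis) of each gene tested, by respiratory complex (x axis), for the 4 inhibitors; filled points passed an adjusted p of 0.05 (limma) and bars are medians. In TSA complexes III (median 0.46) and IV (0.39) lie above 0 with no gene called lower, whereas complex I and its assembly factors have calls on both sides; under the kinase inhibitors 5 points are filled, all with LY294002.

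Of the members called in TSA, 28 had other probe sets that were tested. Of these 48 probe sets 33 shared the call and 40 the direction, with none called the opposite way. Among members that did not pass, other probe sets were called lower for Uqcrb (-0.60), Sdhd (-0.37) and Atp5j2 (1 of 2, at -0.32 and -0.17). That of Atp5pb was called higher (0.38). On single arrays, the mean deviation of all members from the DMSO mean was 0.29, 0.15 and 0.31 in TSA and 0.12, -0.03 and -0.09 in DMSO. For complex IV it was 0.55, 0.41 and 0.57 in TSA, and for complex III 0.48, 0.28 and 0.47. The TSA arrays thus lay above all arrays of the other treatments in these complexes. In complex I the lowest TSA array overlapped with the control arrays. The DMSO array of replicate 1 was the highest of its group, and without it 45 members were higher and 5 lower in TSA.

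**Figure D4:**
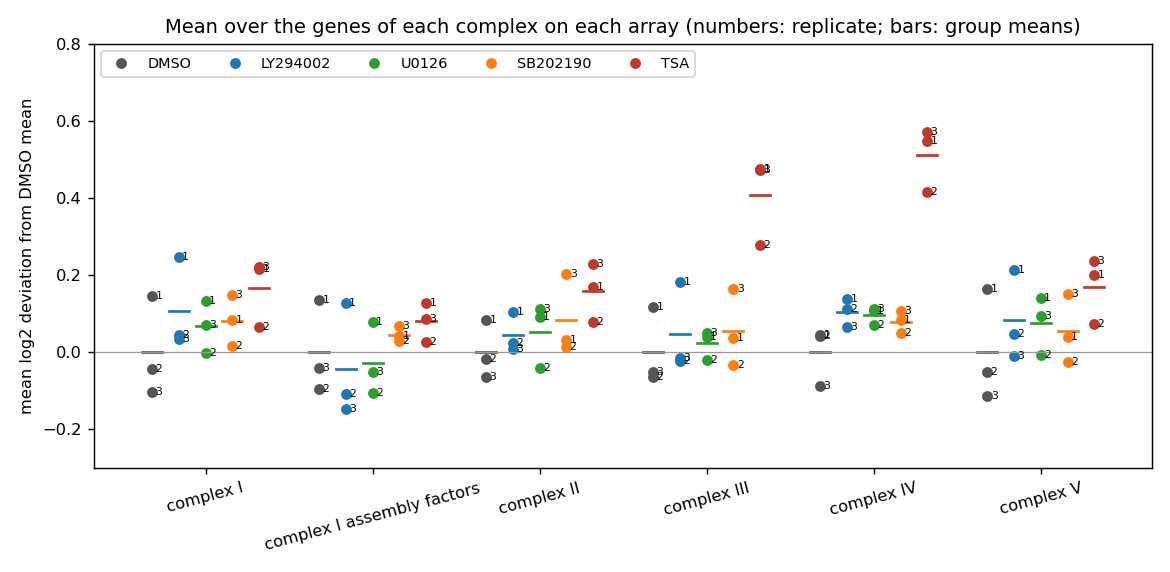
Mean log2 deviation from the DMSO mean (y axis) over the genes of each complex (x axis), 1 point per array with its replicate number, and bars for group means. In complex IV the 3 TSA arrays (0.41 to 0.57) and in complex III (0.28 to 0.48) lie above all others, while in complexes I and V the TSA and DMSO arrays overlap.

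LY294002 changed few of these genes. Against DMSO 3 members rose and 2 fell, where 8.62% of all probe sets were called, 6.83% higher and 1.78% lower; at an unadjusted p under 0.05 the counts were 16 and 4 of 89, where 16.2% and 7.88% of all probe sets were called. Cox7a2l was 11.85, 11.73 and 11.71 with LY294002, above every DMSO array, and rose by 0.54 (SE 0.09, adjusted p = 0.00198). It kept its call under all 15 alternatives, and its other probe sets gave 0.45 and 0.48. Ndufa7, an accessory subunit of complex I, read 12.20, 12.15 and 12.20 against 11.80, 11.85 and 11.76, a rise of 0.38 (SE 0.08, adjusted p = 0.00586) whose call was lost under 2 of 15 alternatives. Ndufa6, another accessory subunit, read 11.19, 10.95 and 10.90 against 10.75, 10.67 and 10.49, and rose by 0.38 (SE 0.11, adjusted p = 0.0355). Its call was lost under 6 of 15 alternatives.

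Those that fell were assembly factors of complex I. Ndufaf4 read 9.83, 9.74 and 9.61 with LY294002 and 10.22, 10.04 and 10.10 with DMSO, a fall without overlap (-0.39, SE 0.09, adjusted p = 0.0167). Ndufaf6 read 7.83, 7.53 and 7.48 against 8.18, 7.89 and 7.96, also without overlap (-0.39, SE 0.10, adjusted p = 0.0226). Their calls were lost under 4 and 6 of 15 alternatives. The median of the members was 0.08, with 67 above 0 and 22 below, but after quantile normalization it was -0.04 with 1 gene higher and 10 lower. These were 1.12% and 11.2% of the members, against 6.69% and 4.08% of all probe sets. Same-numbered arrays of LY294002 and DMSO deviated together, so the replicate number was also used as a block, which gave 10 genes higher and 3 lower (11.2% and 3.37%, against 13.3% and 5.10% of all probe sets). Added were Cox6b2 (0.39), Ndufb11 (0.30), Ndufa2 (0.29), Ndufa1 (0.29), Ndufv3 (0.28), Atp5e (0.25) and Ndufaf7 (0.24) as higher and Atp5g1 (-0.23) as lower. Without the DMSO array of replicate 1, 13 members were higher and 1 lower (14.8% and 1.14%, against 11.8% and 3.23%).

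No member passed the test with U0126 or SB202190 (limma), where 1.93% (1.14% higher, 0.792% lower) and 1.94% (1.23% higher, 0.706% lower) of all probe sets were called. At an unadjusted p under 0.05, 3 were higher and 1 lower with U0126, and 5 higher and 1 lower with SB202190 (of all probe sets 5.70% and 4.09%, and 7.51% and 4.75%). The medians were 0.07 and 0.08, and 0.01 and 0.03 after quantile normalization. The 95% intervals of single genes reached from -0.43 to 0.64 with U0126 and from -0.42 to 0.68 with SB202190. Cox7a2l lay above every DMSO array under both. It read 11.39, 11.35 and 11.53 for U0126 (difference 0.20, adjusted p = 0.486) and 11.42, 11.46 and 11.57 for SB202190 (0.26, adjusted p = 0.197). In all, 8 members lay above every DMSO array with U0126 and 7 with SB202190. These were 8.99% and 7.87%, near the 6.88% and 9.17% of all probe sets. The 4 comparisons with DMSO share the same control arrays, so values that recur between them are not independent.

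In direct comparisons between inhibitors the difference does not involve the DMSO arrays, although they share in the estimate of the spread. TSA exceeded LY294002 in 31 members and was below it in 15, where 40.0% of all probe sets were called, 19.7% higher and 20.3% lower. Against U0126 the counts were 34 and 12 (42.6% of all probe sets called, 22.5% higher and 20.1% lower) and against SB202190 34 and 13 (38.3%, 21.0% higher and 17.3% lower). The lower counts moved by over 1.5 times: against LY294002 to 9 without LY294002 replicate 1, against U0126 to 21 after quantile normalization and to 6 without U0126 replicate 1, and against SB202190 to 8 with centred arrays or without SB202190 replicate 1. Cox6b2 was higher by 0.98, 1.52 and 1.27, and Ndufs8 (-0.53, -0.54 and -0.65) and Ndufs3 (-0.58, -0.60 and -0.54) were among the lowest. Cox7a2l, which rose with both TSA and LY294002, was 0.49 higher with TSA than with LY294002 (adjusted p = 0.000291). LY294002 and U0126 differed in 3 members (5.64% of all probe sets called, 3.99% higher and 1.65% lower), Cox6b2 (0.54, adjusted p = 0.0213) and Cox7a2l (0.34, adjusted p = 0.0351) being higher and Ndufaf4 (-0.36, adjusted p = 0.0348) lower with LY294002. These calls were lost under 5, 5 and 8 of 15 alternatives. LY294002 and SB202190 differed in 1 (4.60% called, 3.06% higher and 1.54% lower), Ndufaf5 (-0.32, adjusted p = 0.0404), an assembly factor of complex I whose call was lost under 7 of 15. With the replicate block these counts were 7 and 3, where 9.70% higher and 4.29% lower, and 6.50% and 3.14%, of all probe sets were called. U0126 and SB202190 differed in none by limma (5.22% called, 2.68% higher and 2.53% lower), with 1 higher and 1 lower at an unadjusted p under 0.05.

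Genes that feed or build the chain were counted in the same fits, where 23.0% of all probe sets were higher and 20.6% lower in TSA. Of 24 genes of the tricarboxylic acid cycle and pyruvate entry, 16 were higher in TSA and 2 lower, with a median of 0.43. Suclg1, a subunit of succinyl-CoA ligase, rose by 0.99 and Ogdh, of the oxoglutarate dehydrogenase complex, by 0.87. The largest rise was that of Pdk4 (1.86, SE 0.18, adjusted p = 2.18e-07), a kinase that turns pyruvate dehydrogenase off. Of 18 genes for coenzyme Q synthesis, cytochrome c and electron transfer flavoprotein, 8 were higher and 1 lower, led by Etfdh (0.80), Coq9 (0.62) and Coq8a (0.61), with a median of 0.20. Of 42 assembly factors outside the rule, 11 were higher and 8 lower, near the shares over all probe sets. Among them were Sdhaf3 (1.31) and Timmdc1 (0.998), which help to build complexes II and I, and Sco2 (-1.04), a copper chaperone of complex IV. The only measured subunit gene of mitochondrial DNA, ND5 of complex I, was 12.30 ± 0.11 in DMSO and 12.66 ± 0.06 in TSA (SD, n = 3; adjusted p = 0.00614).

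Regulators of mitochondrial genes were 9 higher and 4 lower of 24 in TSA, with a median of 0.17. Mterf4 and Mterf2, which act on the mitochondrial ribosome and on mitochondrial transcription, rose by 1.08 and 1.06. Pprc1, a coactivator related to PGC-1alpha, fell by 1.18 (SE 0.11, adjusted p = 2.31e-07). Mitochondrial ribosomal proteins, also made in the nucleus for the same organelle, were 23 higher and 18 lower of 76 with a median of 0.02, which turned to -0.06 after quantile normalization. Cytosolic ribosomal proteins were 1 higher and 6 lower of 45, with the same change of sign in the median (0.02 to -0.06). With LY294002, the tricarboxylic acid cycle list had 1 gene higher (Ogdh, 0.37), the coenzyme Q list 2 lower (Pdss2, -0.37, and Coq3, -0.32), the assembly factors 2 higher (Sdhaf4, 0.42, and Higd2a, 0.40) and 2 lower (Ecsit, -0.34, and Cox10, -0.33), and the regulators 1 lower (Ppargc1b, -0.38). With SB202190 a single gene of these pathway lists passed, Cmc1, a copper-binding factor of complex IV (0.51, adjusted p = 0.0484), and with U0126 none (limma; at an unadjusted p under 0.05, 4 higher in the tricarboxylic acid cycle, 3 higher among assembly factors and 1 lower among regulators).

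**Figure D5:**
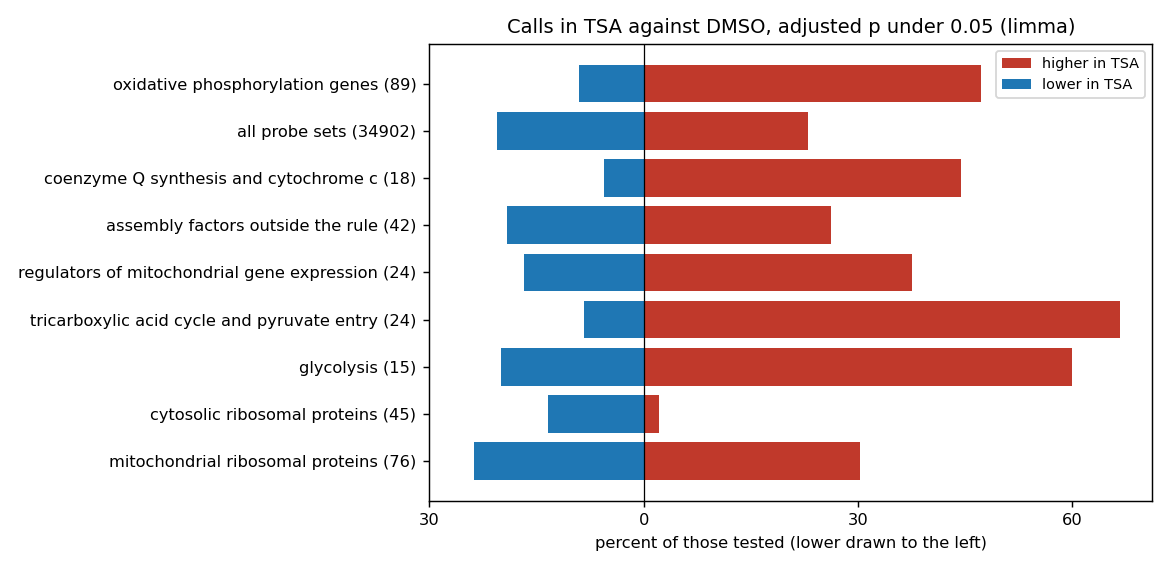
Share of genes tested (x axis, percent) called higher (red, right) or lower (blue, left) in TSA against DMSO (adjusted p under 0.05, limma), for each list (number tested in brackets) and for all probe sets. The oxidative phosphorylation genes (47.2% higher, 8.99% lower) and the tricarboxylic acid cycle (66.7%, 8.33%) lean to the right, whereas the mitochondrial ribosomal proteins (30.3%, 23.7%) and all probe sets (23.0%, 20.6%) have calls of both kinds in nearer numbers.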

How the data were processed

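The 15 arrays were read as log2 signals per probe set, which the authors deposited after background correction, normalization between arrays and summarization. The study names GC-RMA for these arrays and RMAExpress for the same gene set analysis, and which of them made the deposited values was not settled. Array medians lay between 6.90 and 7.00, no pair of arrays was identical, and the lowest correlation between arrays was 0.964. Of 45037 probe sets, 34945 had 1 gene symbol, 932 several and 9160 none, and genes were named from the platform annotation. The 64 control probe sets were left out. Members and gene lists were chosen with earlier results of these data known.

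Probe sets with a group mean of at least 50 (5.64 on the log2 scale) in either group were tested with limma 3.58.1 in R 4.3.3 (lmFit and eBayes, 10 residual degrees of freedom, two-sided), with Benjamini-Hochberg adjustment over all of them. A permutation test of 3 arrays against 3 cannot go below p = 0.1, so none is given. The rule for named genes took, per complex and comparison with DMSO, the 3 called members with the largest rise and the 3 with the largest fall (the largest difference where none was called), 4 per direct comparison, up to 3 per pathway list, and the isoform sets; other genes were named for their role or call after their values were seen. Same-numbered arrays deviated together (every correlation above 0.1) in all comparisons except TSA with DMSO and TSA with LY294002, and the replicate number was tried as a block. The test was checked on simulated data. The number of arrays limits the precision.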

Additional observations from a re-analysis of the deposited data

How the results depend on the processing

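The excess of higher over lower calls in TSA and the positive medians of complexes III and IV kept their direction under the scalings tried, and none of the 67 called results of named genes turned its sign under the alternatives, whereas 45 of 117 that were not called did, such as Cox6a2 in TSA (-0.12 to 0.06). With the replicate number as a block, members were 10 higher with LY294002 and 13 lower with TSA against DMSO, and 7 differed between LY294002 and U0126 and 3 between LY294002 and SB202190; the block moved no other count of members by over 1.5 times. With arrays of the 2 groups only, LY294002 gave 1 higher and 0 lower, LY294002 and U0126 differed in 1 member, LY294002 and SB202190 in 0, and U0126 and SB202190 in 1. After quantile normalization LY294002 gave 1 higher and 10 lower (of all probe sets 6.69% and 4.08%), SB202190 1 lower and TSA 18 lower (22.5% of all probe sets). LY294002 and SB202190 then differed in 6. With arrays centred on the median, LY294002 gave 5 higher and 1 lower and differed from SB202190 in 0. With the probe sets of each gene averaged, LY294002 gave 1 lower and differed from SB202190 in 2. The cause of these shifts was not tested. Other filters on low signal, eBayes with trend and robust, and fits without the TSA arrays moved no count of members by over 1.5 times.

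Leaving out 1 array at a time gave 2 to 13 higher and 0 to 2 lower with LY294002 (13 without DMSO replicate 1, 0 lower without DMSO or LY294002 replicate 3), 35 to 45 higher and 5 to 10 lower with TSA (5 without DMSO replicate 1), and 0 to 0 with U0126 and SB202190. It gave 39 to 47 called between TSA and LY294002, 34 to 47 between TSA and U0126, 36 to 45 between TSA and SB202190, 0 to 2 between LY294002 and U0126, 0 to 2 between LY294002 and SB202190, and 0 to 0 between U0126 and SB202190. For the genes named, 450 of 475 values under the alternatives kept their call in TSA against DMSO, 22 lost it and 3 gained one; in LY294002 against DMSO these were 286 of 310, 18 and 6. Small differences of dim probe sets, such as Cox7c, are limited by signal over background.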

Other observations

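For glycolysis, the pathway that supplies pyruvate to the mitochondrion, 9 of 15 genes were higher and 3 lower in TSA (limma against DMSO). The median difference was 0.44, and of all probe sets 23.0% were called higher and 20.6% lower. After quantile normalization the counts were also 9 and 3 with a median of 0.33, where 23.3% and 22.5% of all probe sets were called. Aldoc, an aldolase best known from brain, rose by 2.15 (SE 0.10, adjusted p = 2.78e-11), Pfkp, the platelet phosphofructokinase, by 1.72, Slc16a3, a lactate exporter, by 1.59 and Slc2a1, a glucose transporter, by 1.13. The liver phosphofructokinase Pfkl fell by 1.23, and Hk2 and Ldha each fell by 0.47. With LY294002 no gene of this list was higher and 2 were lower (1 higher and 5 lower at an unadjusted p under 0.05): Slc16a3 by -0.75 (adjusted p = 9.3e-05) and Aldoc by -0.56 (adjusted p = 0.00216). Of all probe sets 6.83% were called higher and 1.78% lower with LY294002 (16.2% and 7.88% at an unadjusted p under 0.05). With SB202190 Pfkm rose by 0.32 and Slc16a3 fell by 0.47, and with U0126 none passed (limma, 1 higher and 1 lower at an unadjusted p under 0.05). Over all probe sets 1.23% were called higher and 0.706% lower with SB202190. With U0126 these were 1.14% and 0.792% (5.70% and 4.09% at an unadjusted p under 0.05).

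ND5 with LY294002 was 12.66, 12.55 and 12.49, against 12.36, 12.37 and 12.18 in DMSO, which did not overlap but did not pass the test over all probe sets.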
